A study of Homo sapiens with 5 samples.

Results

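The secreted inflammatory genes CXCL1, CXCL2, CXCL3, CXCL5, CXCL8, CCL20, IL6, LIF, IL1A and IL1B were described across nuclei of lung adenocarcinoma lines. They were taken by gene symbol from the deposited matrix of the larger library, where they were 10 of 36601 genes. No measured level entered this rule, although earlier results of these data were known when the genes were chosen. The nuclei came from the established lung adenocarcinoma lines H2228, H1975, A549, H838 and HCC827, which were grown apart in RPMI 1640 medium with fetal calf serum and penicillin-streptomycin, received no treatment, were frozen and were mixed before nuclei were prepared. RNA and open chromatin (ATAC, in which a transposase cuts accessible DNA) were read from the same droplets, which were divided into an 80% and a 20% portion, so each portion was 1 library of each kind from 1 mixture. A long-read library of the 20% portion was not analysed here.

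Chemokines are small secreted proteins that attract leukocytes. CXCL1, CXCL2, CXCL3, CXCL5 and CXCL8 act on CXCR1 or CXCR2 and draw neutrophils, while CCL20 acts on CCR6 and draws lymphocytes and dendritic cells. IL6 and LIF signal through receptors that contain IL6ST (gp130) and switch on STAT3, and IL1A and IL1B are the ligands of IL1R1. Their genes are targets of the transcription factor NF-kB in many epithelial and immune cells, and their mRNAs are short-lived. Lung tumour cells are known to make several of them without help from immune cells.

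The promoters are printed for the 7 genes whose start regions carried the same kind of motif, so that a reader can see what the genes share at their start sites. They run from 250 bases before to 50 bases after the annotated start, 5′ to 3′ on the strand of the gene, from RefSeq on GRCh38.p14, and capitals mark each match to GGNNTTTCC (the NF-kB type) on either strand.
CXCL1 promoter, chr4:73869143-73869442, plus strand: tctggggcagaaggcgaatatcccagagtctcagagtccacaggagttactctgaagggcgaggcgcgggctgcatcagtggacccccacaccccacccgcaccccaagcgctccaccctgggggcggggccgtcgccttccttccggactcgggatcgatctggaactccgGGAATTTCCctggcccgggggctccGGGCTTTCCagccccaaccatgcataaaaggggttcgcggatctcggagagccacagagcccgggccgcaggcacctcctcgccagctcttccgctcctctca
CXCL2 promoter, chr4:74099146-74099445, minus strand: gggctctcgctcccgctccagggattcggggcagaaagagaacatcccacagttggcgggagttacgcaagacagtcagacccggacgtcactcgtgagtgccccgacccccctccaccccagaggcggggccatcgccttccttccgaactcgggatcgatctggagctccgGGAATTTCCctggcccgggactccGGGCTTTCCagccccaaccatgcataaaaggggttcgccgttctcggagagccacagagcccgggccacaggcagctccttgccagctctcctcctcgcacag
CXCL3 promoter, chr4:74038640-74038939, minus strand: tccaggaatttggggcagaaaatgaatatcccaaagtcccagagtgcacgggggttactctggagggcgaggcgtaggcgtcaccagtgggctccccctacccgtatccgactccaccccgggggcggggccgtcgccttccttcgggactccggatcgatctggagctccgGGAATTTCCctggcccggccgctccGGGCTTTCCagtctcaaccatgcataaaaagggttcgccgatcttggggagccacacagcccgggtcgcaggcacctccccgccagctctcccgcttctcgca
CXCL5 promoter, chr4:73998628-73998927, minus strand: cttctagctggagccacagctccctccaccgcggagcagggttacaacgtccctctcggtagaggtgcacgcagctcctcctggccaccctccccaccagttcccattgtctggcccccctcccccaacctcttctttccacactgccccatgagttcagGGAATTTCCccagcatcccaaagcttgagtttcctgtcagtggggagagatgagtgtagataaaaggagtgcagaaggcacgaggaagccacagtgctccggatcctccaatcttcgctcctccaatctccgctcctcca
CXCL8 promoter, chr4:73740319-73740618, plus strand: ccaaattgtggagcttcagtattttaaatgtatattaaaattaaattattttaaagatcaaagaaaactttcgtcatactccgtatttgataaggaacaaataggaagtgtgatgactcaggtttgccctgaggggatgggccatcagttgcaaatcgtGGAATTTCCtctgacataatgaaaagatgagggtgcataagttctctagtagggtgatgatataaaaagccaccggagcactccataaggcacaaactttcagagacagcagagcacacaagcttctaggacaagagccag
CCL20 promoter, chr2:227813592-227813891, plus strand: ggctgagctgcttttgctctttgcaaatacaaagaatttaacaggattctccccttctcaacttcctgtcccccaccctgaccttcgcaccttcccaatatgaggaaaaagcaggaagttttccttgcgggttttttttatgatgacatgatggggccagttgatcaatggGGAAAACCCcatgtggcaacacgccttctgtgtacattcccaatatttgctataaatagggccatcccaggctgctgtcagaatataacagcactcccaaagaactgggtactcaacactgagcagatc
IL6 promoter, chr7:22726950-22727249, plus strand: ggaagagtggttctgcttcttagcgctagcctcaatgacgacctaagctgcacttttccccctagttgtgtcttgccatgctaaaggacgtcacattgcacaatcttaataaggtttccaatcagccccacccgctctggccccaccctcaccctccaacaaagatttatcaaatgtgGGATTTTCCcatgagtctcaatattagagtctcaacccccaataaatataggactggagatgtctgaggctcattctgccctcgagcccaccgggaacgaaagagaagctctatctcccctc
GGNNTTTCC was found in 7 of the 9 genes with a promoter entry, beside 6.26% of all 35116 promoters of the same length. CXCL1, CXCL2 and CXCL3 each held 2 matches, the nearer at 53 bases before the start, CXCL5 held 1 at 90, CXCL8 at 91, IL6 at 72, and CCL20 1 on the other strand at 79. IL1A and IL1B held none in this window, and LIF had no entry. TGANTCA (AP-1) was found in CXCL8 and IL1A, beside 7.71% of all promoters, TTGCNNAA (C/EBP type) in CXCL2, IL6 and IL1B, beside 10.5%, and TATAAA in CXCL8, CCL20 and IL1A, beside 11.5%. All motifs were searched on both strands, and no matches of different motifs overlapped in these promoters. The promoters of CXCL1 and CXCL3 were 82.5% identical, those of CXCL1 and CXCL2 71.9%, of CXCL1 and CXCL5 55.3% and of CXCL1 and CXCL8 45.2%. A match is a description of letters and not a measured binding site. For IL6, distances of upstream peaks were counted from another annotated start, near chr7:22725884, which lies before the printed window. The IL6 promoter peak and the printed IL6 window therefore need not coincide. The annotated CCL20 gene begins at chr2:227805739, also before its printed window, so the same holds for the CCL20 promoter peak.

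The 80% portion held 6557 nuclei with 95455518 RNA molecules (unique molecular identifiers, UMIs) and 63920767 ATAC counts, and the 20% portion held 1286 nuclei with 14346346 UMIs and 12850543 ATAC counts. The 10 genes took 9152 UMIs of the 80% portion, which was 0.00959% of its RNA, and 53.2% of its nuclei had at least 1 of these UMIs. In the 20% portion they took 1388 UMIs, and 45.0% of nuclei had at least 1. Of the barcodes, 159 were called in both portions. No file gave the line of a nucleus, so nuclei were put into 5 RNA clusters, named here by number and by the genes that led them, and no cluster was given the name of a line. Cluster 0 held 2474 nuclei led by MALAT1 and S100A10, cluster 1 held 1459 led by ALDH1A1 and AKR1B10, and cluster 2 held 1451 led by LDHB and ITPR2. Cluster 3 held 837 nuclei led by ACTB and HSP90AA1, and cluster 4 held 336 led by EGFR and RPL7. By ATAC, cluster 3 fell mostly into a subset 3a of 429 nuclei led by HSP90AA1 and HSPB1 and a subset 3b of 347 nuclei led by PVT1 and VIM. Levels are UMIs of a gene for every 1000000 UMIs of its cluster (CPM), each with an exact Poisson 95% interval, which covers counting error only. With 1 library in each portion there was no replicate and no test, and differences are described by their intervals and by the second library.

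The label of lung epithelial tumour cells was set against markers. Epithelial markers summed to between 1679 and 10522 CPM in the 5 clusters, mostly from keratins. EPCAM (23.8 CPM) and CDH1 (4.87 CPM) were lowest in cluster 2. Of the lung markers, NKX2-1 was 42.7 to 74.2 CPM in clusters 0, 3 and 4 but 2.31 and 2.56 CPM in clusters 1 and 2. NAPSA was 68.4 CPM in cluster 4 and 1.78 to 5.76 CPM elsewhere, and SFTPB no more than 0.379 CPM. The lung part of the label was thus not borne out in clusters 1 and 2. Leukocyte markers summed to between 54.4 and 112 CPM, with MS4A1 and FCGR3A at 0, PTPRC at no more than 0.735 CPM and LYZ at no more than 0.0948 CPM. Endothelial markers summed to between 1.83 and 11.7 CPM with CLDN5 at 0, and fibroblast markers to between 20.0 and 244 CPM, of which COL1A1 in cluster 0 made up 243. PTPRC, which all leukocytes share, and the T cell marker CD3E were at or near 0 in every cluster, each at no more than 0.735 CPM. Other genes of the list were read: S100A9 at 20.1 to 76.2 CPM, CD68 at 13.1 to 45.1 CPM, S100A8 at up to 12.6 CPM, CD14 at up to 10.3 CPM and CSF1R at up to 6.23 CPM. Their part in the results was not tested.

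A single nucleus stood apart and is given before the results because values of cluster 4 rest on it. It was found after its values were seen. It held 175 UMIs of the 10 genes among 25948 UMIs, whereas the next highest nucleus of cluster 4 held 21. Those were 64 UMIs of CXCL1, 48 of CXCL2, 46 of IL6, 13 of CCL20, 2 of CXCL8 and 1 each of CXCL3 and CXCL5, with 0 of LIF. Its leading genes were HES1 with 264 UMIs, the C/EBP factor CEBPD with 231 and the STAT3 feedback inhibitor SOCS3 with 177. IRF1 followed with 175, TXNIP with 172, UGCG with 161 and JUN with 158, and the adhesion molecule ICAM1 had 110. Chemokines and immediate feedback genes were thus high in 1 nucleus together. Of the markers, 0 of 12 for leukocytes, 0 of 5 for endothelium and 1 of 7 for fibroblasts had a UMI in it. Its EGFR level of 462 CPM lay far below the 7058 CPM of cluster 4 and beside the 461 CPM of cluster 0. Over the variable genes its profile correlated at 0.532 with cluster 0, at 0.470 with cluster 3 and at 0.452 with cluster 4. By ATAC it fell in the cluster that held most nuclei of RNA cluster 0, and it was not called a doublet. Its RNA cluster therefore goes against its own EGFR level, and cluster 4 levels of the 10 genes that it moves are given with and without it.

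Levels by cluster differed most for CXCL5, which encodes a neutrophil chemokine of epithelial cells. Its level was 87.5 CPM (82.8 to 92.4) in cluster 1, where 40.7% of nuclei had a UMI. It was 6.82 CPM in cluster 4, 5.17 CPM in cluster 0, 3.39 CPM in cluster 3 and 1.20 CPM (0.763 to 1.81) in cluster 2. Cluster 1 stood 12.8 times above the next cluster (9.14 to 18.6), and no interval of another cluster came near its own. The order began the same way in the 20% portion, with 96.6 CPM (83.8 to 111) in cluster 1 and 9.28 CPM in cluster 4, a ratio of 10.4 (4.70 to 28.7). As a share of its cluster 1 level, CXCL5 was 1.38% in cluster 2, 3.88% in cluster 3, 5.90% in cluster 0 and 7.79% in cluster 4. For ALDH1A1, the leading gene of cluster 1, these shares were 1.64%, 3.97%, 3.61% and 2.11%, and for AKR1B10, the next, 2.78%, 5.14%, 10.9% and 3.63%. CXCL5 exceeded both in cluster 4 alone, and how much of its RNA elsewhere came from free RNA or mixed droplets was not tested. With called doublets removed, CXCL5 was 3.84 CPM in cluster 0 and 0.902 CPM in cluster 3.

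CXCL3, another CXCR2 ligand, was also highest in cluster 1, at 24.5 CPM (22.0 to 27.1) with UMIs in 16.6% of nuclei. Cluster 0 followed at 4.53 CPM, cluster 4 at 2.81 CPM, cluster 3 at 2.42 CPM and cluster 2 at 1.36 CPM. Of these 4 lower clusters, each overlapped its neighbour in the order. The ratio of cluster 1 to cluster 0 was 5.40 (4.52 to 6.47) in the 80% portion and 2.13 (1.34 to 3.35) in the 20% portion, so the direction was shared. A nucleus of cluster 0 in the 20% portion held 15 of 50 CXCL3 UMIs, and without it the ratio was 3.04.

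CXCL1 and CXCL2, close paralogs of CXCL3, were spread more widely. CXCL1 was 21.6 CPM (20.2 to 23) in cluster 0 and 19.8 CPM (17.6 to 22.2) in cluster 1, which overlapped, against 4.99 CPM in cluster 3 and 3.30 CPM in cluster 2. Its 20.5 CPM in cluster 4 became 7.66 CPM (5.42 to 10.5) without the single nucleus, and in the 20% portion cluster 4 had 1.55 CPM. CXCL1 was thus high in clusters 0 and 1 in both portions, and its cluster 4 level rested on 1 nucleus. CXCL2 was 32.1 CPM (27.3 to 37.5) in cluster 4, which became 22.6 CPM (18.6 to 27.2) without that nucleus, and 29.9 CPM (27.2 to 32.8) in cluster 1. It was 16.0 CPM in cluster 0, 11.8 CPM in cluster 3 and 4.71 CPM in cluster 2. With the nucleus left out, and in the 20% portion at 38.3 CPM, cluster 1 was highest for CXCL2. The mRNAs of the 3 paralogs share runs of up to 97 identical bases (CXCL2 and CXCL3), and the longest of CXCL1 and CXCL2 was 77, so the split of reads among them is uncertain.

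CXCL8 (interleukin 8), a ligand of both neutrophil receptors, was close to even in 3 clusters. It was 19.0 CPM (15.4 to 23.3) in cluster 4, 16.4 CPM (14.4 to 18.6) in cluster 1 and 15.0 CPM (13.9 to 16.2) in cluster 0, and neighbours in this order overlapped. It was 10.5 CPM in cluster 3 and 3.51 CPM (2.72 to 4.45) in cluster 2. The single nucleus hardly touched it, since cluster 4 kept 18.7 CPM without it, but the nucleus of cluster 4 with the most CXCL8 did: without its 19 UMIs the level was 15.3 CPM, and cluster 1 came first. Cluster 4 of the 20% portion had 17.0 CPM, but 10 of its 11 UMIs lay in 1 nucleus, without which it was 1.57 CPM (0.0398 to 8.76). Cluster 2 was last of the larger clusters again, at 3.77 CPM. Which of the 3 clusters was highest for CXCL8 was thus decided by single nuclei.

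CCL20, the ligand of CCR6, was rare, with 129 UMIs in 72 nuclei. It was 3.41 CPM in cluster 4, of which 13 of 17 UMIs lay in the single nucleus, and 0.806 CPM without it. Cluster 2, where 1 nucleus held 13 of 42 UMIs, had 2.20 CPM, and cluster 0 had 1.14 CPM. In the 20% portion cluster 0 was highest at 2.18 CPM, with 7 of its 14 UMIs in 1 nucleus and 1.09 CPM without it, and cluster 2 had 0.314 CPM, so no order of clusters held for CCL20 in both portions.

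**Figure D1:**
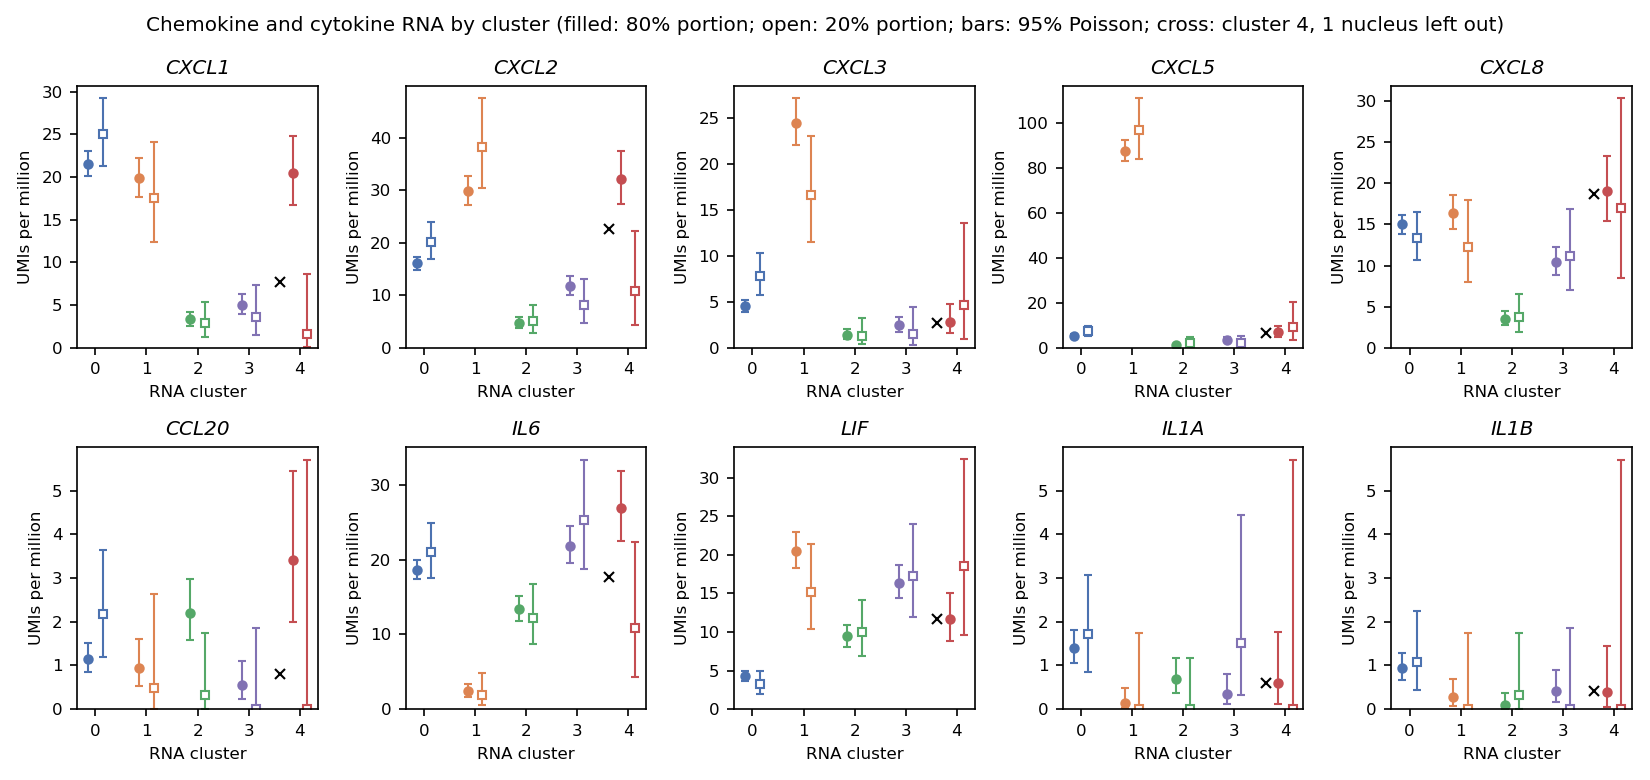
RNA level of each gene (CPM, linear axis from 0) in RNA clusters 0 to 4, with filled circles for the 80% portion, open squares for the 20% portion, bars for exact Poisson 95% intervals and a cross for cluster 4 without 1 nucleus. CXCL5 reaches 87.5 in cluster 1 and no more than 6.82 elsewhere in the 80% portion, IL6 is lowest in cluster 1 at 2.38, and the cross lies at 7.66 for CXCL1 against 20.5 with that nucleus.

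IL6, which drives STAT3 through IL6ST, had the opposite gap. It was 2.38 CPM (1.66 to 3.31) in cluster 1, where 2.12% of nuclei had a UMI, and between 13.3 and 26.9 CPM in the other 4 clusters. Cluster 4 had 26.9 CPM (22.5 to 31.8) with the single nucleus and 17.7 CPM (14.2 to 21.9) without it, cluster 3 had 21.9 CPM (19.5 to 24.4), cluster 0 had 18.6 CPM (17.4 to 20.0) and cluster 2 had 13.3 CPM (11.8 to 15.1). Cluster 1, highest for CXCL5 and CXCL3, was thus lowest for IL6, and in the 20% portion it was lowest again at 1.89 CPM. Within cluster 3, subset 3b had 32.8 CPM (28.2 to 37.9) and subset 3a had 15.4 CPM (12.7 to 18.4). The 20% portion gave 35.8 CPM (23.6 to 52.1) and 18.5 CPM (11.8 to 27.8) for these subsets, in the same order but with overlapping intervals. IL6-AS1 overlaps IL6, and the sources used here do not say whether strand was used in counting.

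LIF, the leukaemia inhibitory factor of the same receptor family, followed another order than IL6. It was 20.5 CPM (18.3 to 23) in cluster 1, 16.4 CPM (14.4 to 18.6) in cluster 3, 11.6 CPM (8.83 to 15.0) in cluster 4, 9.42 CPM in cluster 2 and 4.29 CPM (3.69 to 4.96) in cluster 0. Cluster 1 stood 4.78 times above cluster 0 (3.97 to 5.78), and 4.64 times (2.59 to 8.46) in the 20% portion. The largest cluster was thus the lowest for LIF in both portions. The highest was less clear, since the intervals of clusters 1 and 3 overlapped, and in the 20% portion cluster 4 came first at 18.6 CPM, before cluster 3 at 17.2 CPM and cluster 1 at 15.1 CPM. The single nucleus held no UMI of LIF. LIF-AS1 and LIF-AS2 lie beside LIF on the other strand, with the same limit as for IL6.

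IL1A and IL1B, the ligands that start much of the cytokine response of epithelium, were near the limit of detection. IL1A had 82 UMIs, 59 of them in cluster 0 (1.40 CPM, 1.06 to 1.80), and IL1B had 54 UMIs, 40 of them in cluster 0 (0.948 CPM, 0.677 to 1.29). For both genes cluster 0 lay above cluster 1, at 0.136 CPM for IL1A (0.0165 to 0.491) and 0.272 CPM for IL1B (0.0740 to 0.696), although the upper bound for IL1B in cluster 1 passed the lower bound in cluster 0. In the 20% portion cluster 0 held 11 of the 14 UMIs of IL1A and 7 of the 8 of IL1B.

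A gene was counted as high in 1 cluster when its level there was at least 4 times the median of the other 4. In the 80% portion this held for 2 of the 10 genes, CXCL5 at 20.4 times and CXCL3 at 9.35 times, beside 18.5% of all 19022 genes tested, a share like that of the 10. The rule held in the 20% portion for 4 of the 7 that could be tested, namely CXCL5 at 20.6 times, CXCL1 at 6.12 times, CXCL3 at 5.38 times and CXCL2 at 4.05 times, beside 12.6% of all genes. The median ratio was 2.53 for the 10 genes and 1.84 for all genes tested. Summed over the 10 genes, cluster 1 was highest in both portions, at 202 and 199 CPM, and cluster 2 lowest, at 39.8 and 38.0 CPM.

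The UMIs were not spread evenly over nuclei of a cluster. Nuclei with at least 5 UMIs of the 10 genes were 8.29% of cluster 0 and held 46.8% of its UMIs of these genes. They were 13.2% of cluster 1 with 47.3% of the UMIs, 5.38% of cluster 3 with 31.5%, and 1.03% of cluster 2 with 13%. In cluster 4 they were 7.44% of nuclei with 64.5% of the UMIs, and without the single nucleus 7.16% with 50.5%, near clusters 0 and 1. A minority of nuclei thus held a large share of these transcripts, so the intervals on levels, which treat UMIs as independent, are too narrow. The 66 nuclei with the most UMIs of each gene, 1% of all, held 36.9% of the UMIs of CXCL1, 31.6% of CXCL8, 25.2% of CXCL5, 22.1% of IL6 and 17.0% of LIF. For rare genes this share is nearly set by the count. It was 95.3% for CCL20, which had UMIs in only 72 nuclei, 85.4% for IL1A and 100% for IL1B. The shares are therefore no ranking of unevenness. They also pool the 5 clusters, so differences between clusters enter them. Within cluster 1, the top 1% of its nuclei held 10.0% of its CXCL5 UMIs and 13.2% of its LIF UMIs. Within cluster 0 the top 1% held 28.6% of its CXCL1 UMIs.

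With nuclei thinned to 5000 UMIs, which left out 101 shallower nuclei (between 10 and 32 in each cluster), the variance of UMIs over nuclei divided by their mean, which is 1 for random counts, described this spread at equal depth. The median of all genes with similar means was 1.04 to 1.05 in the clusters. CXCL1 was at 3.22 in cluster 0 and 1.60 in cluster 1, and its 7.05 in cluster 4 fell to 1.17 without the single nucleus. CXCL8 was at 6.56 in cluster 4 and 6.70 without that nucleus, and at 3.42 in cluster 3 and 2.55 in cluster 2. CXCL8 was thus as uneven in cluster 4 without the nucleus as with it: 4 of the 336 nuclei held 47.4% of its UMIs there, up to 19 in 1 nucleus. LIF was even, at between 0.980 and 1.16 in all 5 clusters, and IL6 lay at 1.19 to 1.24 in clusters 0, 2 and 3. IL6 in cluster 4 was at 4.84 and at 2.05 without the nucleus. LIF was therefore near the median of all genes in every cluster, whereas CXCL1 in cluster 0 and CXCL8 in clusters 2, 3 and 4 lay far above it. Before thinning, 1 nucleus held 19 of 95 CXCL8 UMIs in cluster 4, 23 of 151 in cluster 3 and 8 of 67 in cluster 2. The spread of CXCL8 without these nuclei was not measured.

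**Figure D2:**
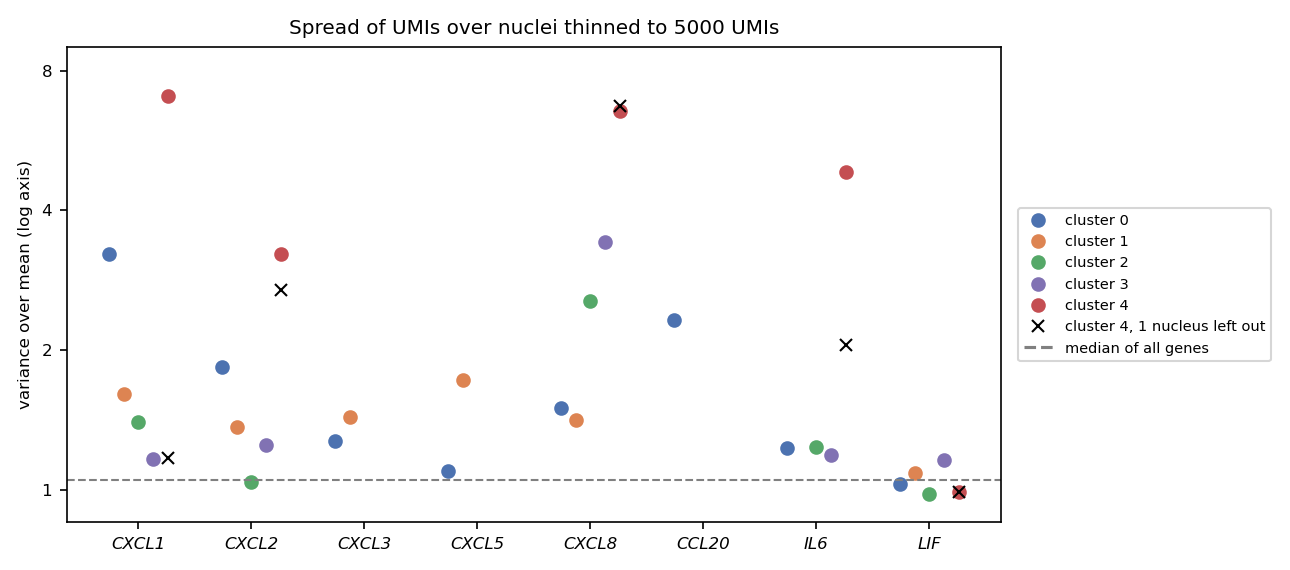
Variance over mean of UMIs per nucleus (log axis) after thinning to 5000 UMIs, for each gene and RNA cluster of the 80% portion with enough UMIs, with the median of all genes as a dashed line and crosses for cluster 4 without 1 nucleus. LIF lies at 0.980 to 1.16 near the line, whereas CXCL8 reaches 6.56 in cluster 4 with its cross at 6.70 and CXCL1 falls from 7.05 to 1.17.

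Some of the genes were found in the same nuclei. After thinning to 5000 UMIs, the share of nuclei with gene B was compared between nuclei with and without gene A for 45 pairs within clusters. The share was higher with gene A for 37 pairs, and the exact binomial 95% intervals lay apart for 11, which were 4 of 21 in cluster 0, 7 of 15 in cluster 1, 0 of 3 in cluster 2 and 0 of 6 in cluster 3. Pairs were counted as apart only where the share was higher with gene A. In cluster 0, CXCL8 was found in 15.8% (10.4 to 22.6) of nuclei with CXCL1 and 4.18% (3.40 to 5.08) of those without. CXCL2 was found in 19.1% (13.2 to 26.2) of nuclei with CXCL1 and 5.44% (4.55 to 6.45) of those without, a pair whose reads may be exchanged. In cluster 1, CXCL8 was found in 19.0% (12.3 to 27.3) of nuclei with CXCL1 and 5.64% (4.46 to 7.03) of those without. CXCL8 was thus found with CXCL1 in both clusters; the longest run of bases their transcripts share is 10. CXCL5 in cluster 1 was found in 44.8% (35.6 to 54.3) of nuclei with CXCL1 and 25.2% (22.8 to 27.6) of those without. Of the 11 pairs, 10 joined chemokines to each other, and the other joined CXCL3 to IL6 in cluster 0 (23.8%, 12.1 to 39.5, against 8.76%). No pair with LIF had its intervals apart: LIF was found in 8.12% (5.58 to 11.3) of cluster 1 nuclei with CXCL5 and 10.0% (8.29 to 12) of those without. For 10 chemokine pairs of clusters 0 and 1 the intervals thus lay apart, and for LIF no such tie was detectable at this depth. Among the 10 were CXCL3 with CXCL1 and CXCL3 with CXCL2 in cluster 1, whose reads may be exchanged as well. The share of other gene pairs with intervals apart was not measured, so the count cannot be called particular to these genes.

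**Figure D3:**
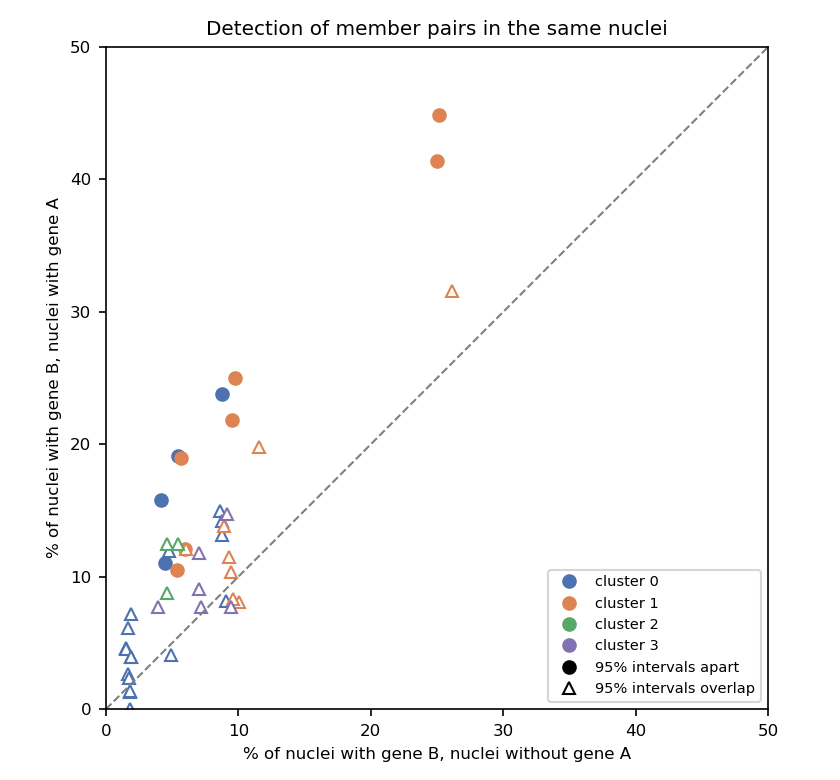
Share of nuclei (%, 80% portion, thinned to 5000 UMIs) with gene B among nuclei with gene A (vertical) against nuclei without gene A (horizontal), 1 point for each of 45 pairs within a cluster, filled where the 95% intervals lie apart and with equality as a dashed line. The 11 filled points belong to clusters 0 and 1, and only points above the line could be filled.

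Over the nuclei of cluster 1, where the summed level was highest, the genes with the closest pattern to the summed chemokines and cytokines (Pearson r after total UMIs were removed, 1459 nuclei) were TPPP3 at 0.24, the secreted protein disulphide isomerase AGR2 at 0.23, and then CAST, KRT19, FN1, MALAT1, INPP4B, S100A4, MUC5AC and GPRC5A, down to 0.20. These r values are low, as sparse counts give, and are no more than a description. Over the 5 clusters of both portions, 10 points from shared libraries, the closest gene to CXCL5 was VPS13C at 0.99, to CXCL3 CENPX at 0.98, to CXCL8 the growth factor gene EREG at 0.99, to CXCL1 POU5F1 at 0.97, to CXCL2 ADGRG2 at 0.97, to IL6 CHIC2 at 0.98 and to LIF ZNF277 at 0.98. Between 3 genes (for CXCL1 and CXCL2) and 57 genes (for CXCL5) of 19022 passed 0.95. Each named gene was picked as the highest of 19022. Some points rest on single nuclei of cluster 4. Without the single nucleus of the 80% portion, CXCL1 fell there from 20.5 to 7.66 CPM, CXCL2 from 32.1 to 22.6 and IL6 from 26.9 to 17.7. CXCL3, CXCL5 and LIF hardly moved. In the 20% portion CXCL8 fell from 17.0 to 1.57 CPM without its top nucleus. The r values without these nuclei were not measured, so the named genes are no more than a description.

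Peaks at these promoters (within 1 kb of the start) were found for each gene but LIF, with 2 for CXCL1. Of the 10 promoter peaks, 2 were high in 1 cluster by the 4-fold rule, beside 26.5% of all 142899 peaks tested. The rule counts only a rise in 1 cluster, so a start region that is low in 1 cluster, as described for IL6 below, is not counted. The share over other promoter peaks was not measured, so the count does not say how divided these start regions were. The 2 were a second, weaker CXCL1 peak 809 bases past the start (4.19 ATAC counts for every 1000000 of the cluster, or ATAC CPM, in cluster 0, 0.214 to 2.40 elsewhere) and the CCL20 peak with 69 counts. In the 20% portion the CXCL1 peak was not past the rule, and its highest cluster was another.

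The IL6 promoter had hardly any counts in the cluster with the least IL6 RNA. Its peak had 1.42 ATAC CPM in cluster 1 (16 counts), 35.4 in cluster 0 (1041 counts), 35.1 in cluster 3, 24.9 in cluster 4 and 18.9 in cluster 2. The 20% portion gave 1.36 in cluster 1 and between 19.3 and 48.5 elsewhere. RNA and chromatin of IL6 were thus lowest in the same cluster in both libraries. In subset 3b, with the higher IL6 RNA, the peak had 38.7 ATAC CPM, and in subset 3a it had 33.3, a far smaller difference than that of the RNA.

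The CXCL5 promoter peak was highest in the cluster with the most CXCL5 RNA. It had 17.1 ATAC CPM in cluster 1, 6.71 in cluster 4, 6.64 in cluster 0, 2.73 in cluster 3 and 0.214 in cluster 2. The order over clusters was that of the RNA, but clusters 4 (27 counts) and 0 (195 counts) were nearly level. The step from cluster 1 to the next was smaller in chromatin than in RNA. Cluster 1 was again highest in the 20% portion, at 13.6, and cluster 2 had 0. Cluster 0 had 9.99 there, cluster 4 had 9.94 and cluster 3 had 3.59, which was not the order of the RNA in that portion.

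CXCL8 did not follow its promoter peak in cluster 4. The peak had 16.2 ATAC CPM in cluster 0, 13.1 in cluster 1, 5.85 in cluster 3, 4.48 in cluster 4 and 2.46 in cluster 2, whereas the RNA of cluster 4 was no lower than that of clusters 0 and 1. Few nuclei carried most of that RNA, as described above. The main CXCL1 peak had 8.79 ATAC CPM in cluster 1, 8.20 in cluster 4, 7.25 in cluster 0, 4.49 in cluster 2 and 3.73 in cluster 3. CXCL1 RNA was also low in clusters 2 and 3, and in cluster 4 without the single nucleus it was lower than the peak's place in the order. The peaks of CXCL2 (21.8 to 30.8) and CXCL3 (6.26 to 14.1) were open in all 5 clusters, and for both the highest was cluster 1. Those of IL1A (2.49 to 5.89) and IL1B (1.92 to 4.43) were highest in cluster 0, as the RNA was. In the 20% portion cluster 1 was again highest at the CXCL2 peak, at 41.8. At the CXCL3 peak cluster 0 was highest there, at 17.2 against 15.9 in cluster 1. At the main CXCL1 peak it was also cluster 0, at 8.87 against 6.36 in cluster 1.

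**Figure D4:**
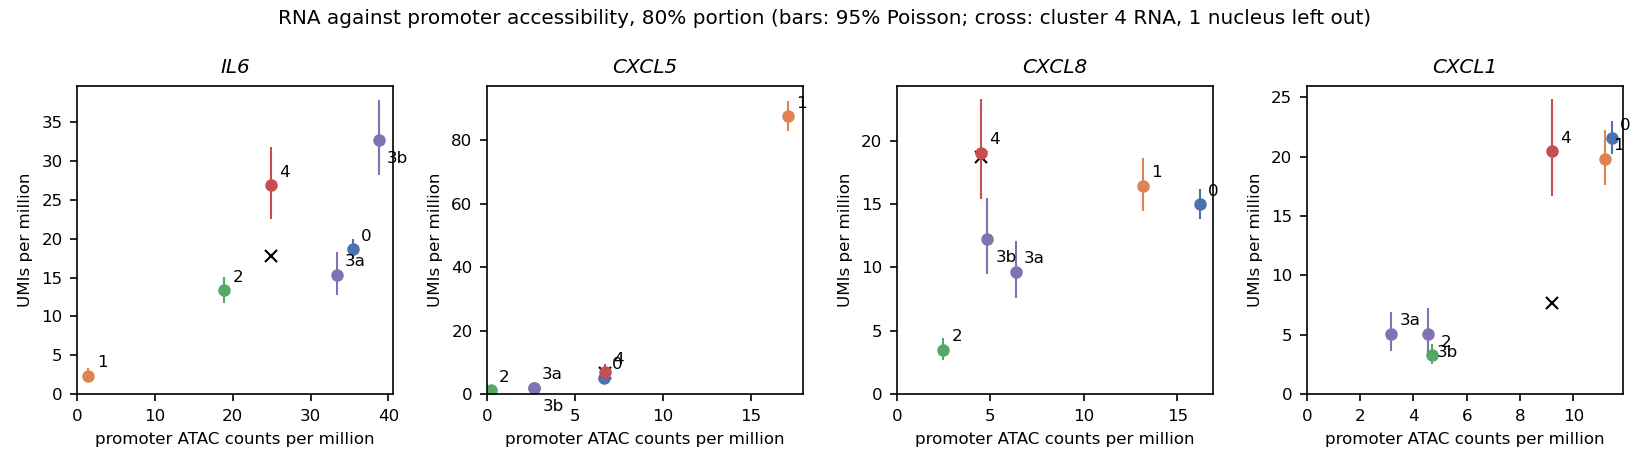
RNA level (CPM, bars exact Poisson 95% intervals) against promoter ATAC CPM in clusters 0, 1, 2 and 4 and subsets 3a and 3b of the 80% portion, with crosses for cluster 4 RNA without 1 nucleus. Cluster 1 lies at the lower left for IL6 (2.38 and 1.42) and the upper right for CXCL5 (87.5 and 17.1), and for CXCL8 cluster 4 lies high at 19.0 over a promoter value of 4.48.

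RNA and chromatin were then compared nucleus by nucleus within clusters, which holds the cluster fixed. In cluster 0 the 168 nuclei with a count in a CXCL1 promoter peak had 40.9 CPM of CXCL1 and the 2306 without had 20.0 CPM, a ratio of 2.04 (1.68 to 2.47). Their median ATAC totals were 12769 and 11449.5, so nuclei with a count were somewhat deeper. In cluster 1 the ratio for CXCL1 was 1.69 (1.09 to 2.54). CXCL1 RNA was thus higher where its promoter was read as open, in both clusters that make most of it. The intervals of these ratios also treat UMIs as independent and are too narrow, which matters most where a lower bound is near 1. The ratio was 2.49 (1.56 to 3.81) for CXCL5 in cluster 0 but 1.20 (0.970 to 1.47) in cluster 1, and 1.49 (1.17 to 1.86) for CXCL8 in cluster 0. For CXCL2 it was 1.40 (1.16 to 1.67) in cluster 0, 1.36 (1.05 to 1.75) in cluster 1 and 1.66 (1.12 to 2.41) in cluster 3. In cluster 4 it went the other way, at 0.579 (0.339 to 0.939), or 0.873 (0.503 to 1.44) without the single nucleus. For CXCL3 no such difference was detectable at this depth, at 0.955 (0.511 to 1.64) in cluster 0, 1.34 (0.872 to 1.99) in cluster 1 and 0 (0 to 2.61) in cluster 3. For IL6 the ratio was 1.38 (1.17 to 1.61) in cluster 0, and its 3.66 in cluster 4 became 0.780 (0.386 to 1.44) without the single nucleus. Its intervals included 1 in cluster 2, at 1.43 (0.888 to 2.20), and in cluster 3, at 1.25 (0.962 to 1.62). The same held for CXCL8 in cluster 1, at 1.62 (0.958 to 2.59), and CXCL2 in cluster 2, at 1.44 (0.635 to 2.87). IL1A and IL1B in cluster 0 gave 1.44 (0.287 to 4.42) and 1.66 (0.194 to 6.42). Doublets of unlike nuclei carry both readouts, and their part in these ratios was not tested.

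Around the genes, 208 peaks lay within 100 kb of a start, promoter peaks included, and 54 of the 197 tested were high in 1 cluster, beside the same 26.5% of all peaks. Of the 29 of these with an overlapping peak in the 20% portion, 25 had the same highest cluster there. The same share was not measured over all peaks past the rule, so it cannot be called particular to these neighbourhoods. In the 20% portion itself 11 of 83 nearby peaks passed the rule, beside 15.9% of all peaks of that portion. By this rule, which counts only a rise in 1 cluster, the neighbourhoods as a whole were thus divided about as often as other peaks.

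The most divided of the peaks near CXCL5 lay 24785 bases before its start, between genes, at chr4:74023463-74024400 (GRCh38). It had 16.5 ATAC CPM in cluster 1 and no more than 0.443 elsewhere, which was 43.3 times the median of the other clusters, and in the 20% portion 15.4 in cluster 1 and 0 in the others. It also lies 14288 bases past the start of CXCL3, the other gene that was highest in cluster 1. A second peak at chr4:74005184-74006143, 6506 bases before CXCL5 and in an intron of ENSG00000287037, which is annotated beside CXCL5, had 11.9 in cluster 1 and no more than 1.02 elsewhere; it was named after its values were seen. The central 300 bases of the first peak (chr4:74023782-74024081, plus strand, GRCh38) are printed because no other named peak was so confined, and capitals mark the only match to any of the 4 motifs, TATAAA.
Peak before CXCL5: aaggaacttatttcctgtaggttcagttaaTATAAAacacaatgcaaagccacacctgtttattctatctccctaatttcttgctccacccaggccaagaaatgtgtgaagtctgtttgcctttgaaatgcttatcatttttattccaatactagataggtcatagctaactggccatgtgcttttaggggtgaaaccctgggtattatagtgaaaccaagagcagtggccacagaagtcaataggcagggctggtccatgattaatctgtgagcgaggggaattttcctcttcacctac
The share of all ATAC counts that fell on chromosome 4 was lower in cluster 1 than the average of the rest (-0.39 as a log2 ratio) and higher in cluster 0 (0.38).

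**Figure D5:**
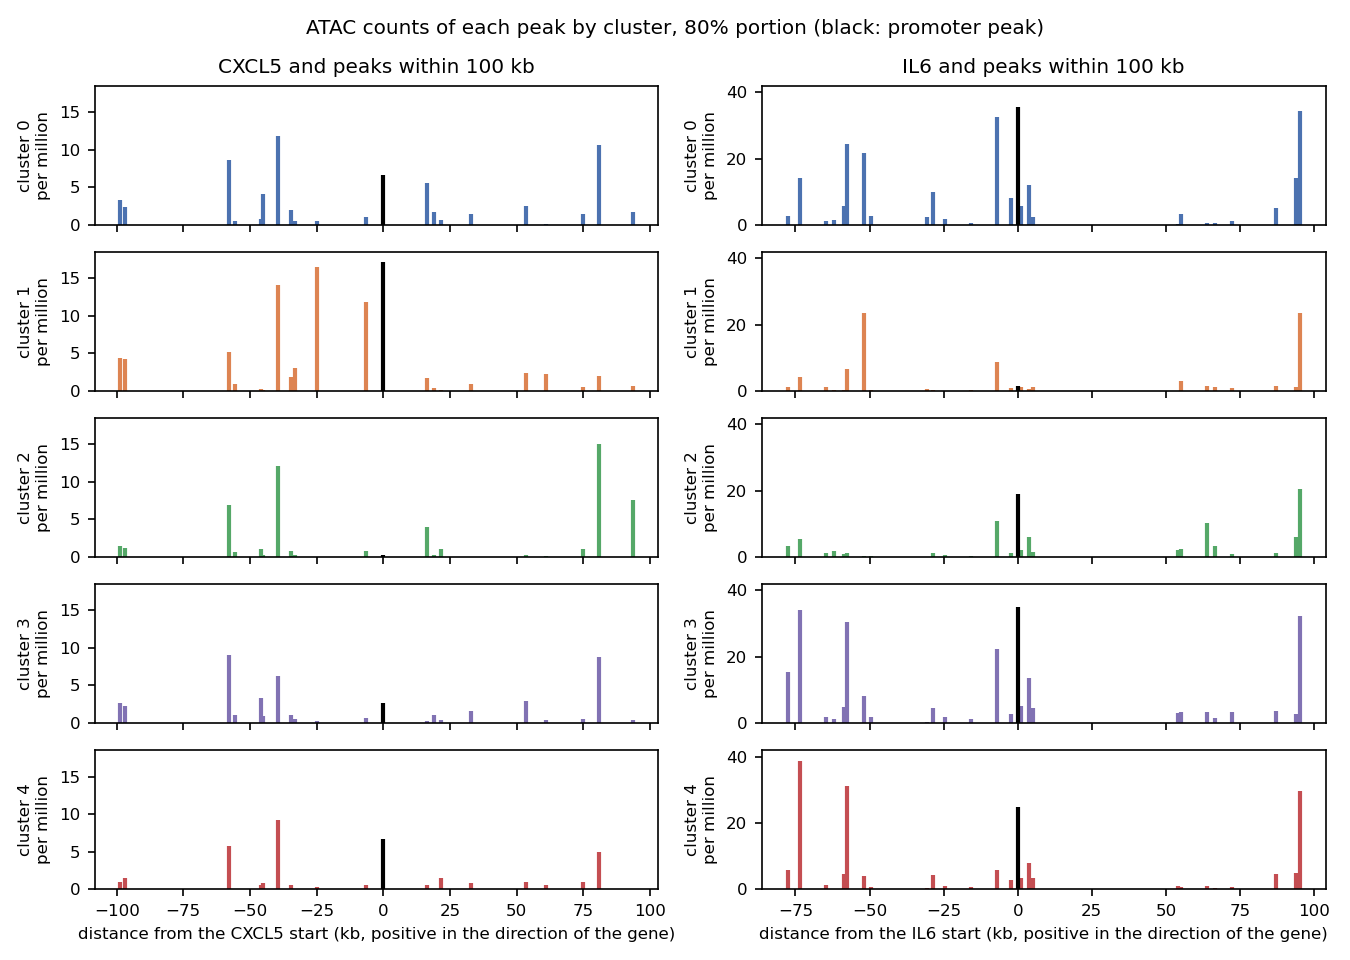
ATAC CPM (linear axis) of each peak within 100 kb of the start of CXCL5 (left) and IL6 (right) in the 5 RNA clusters of the 80% portion, by distance from the start in kb in the direction of the gene, with the promoter peak in black. The CXCL5 promoter and the peak 24785 bases before it reach 17.1 and 16.5 in cluster 1, and the IL6 promoter drops to 1.42 there.

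Near IL6, the peak at chr7:22717907-22718826, 7057 bases before the start in an intron of STEAP1B, had 32.7 ATAC CPM in cluster 0, 22.2 in cluster 3, 10.8 in cluster 2, 8.70 in cluster 1 and 5.72 in cluster 4. The peak at chr7:22651628-22652518, 73365 bases before the start in another stretch of that gene, had 38.8 in cluster 4 and 34.0 in cluster 3 and no more than 14.3 in the others. A peak over an exon of TOMM7 at chr7:22822431-22823335 was open in every cluster, at 20.5 to 34.2. The clusters with IL6 RNA thus differed in which upstream peaks were open, and clusters 3 and 4 shared a far one. Chromosome 7 had a raised share of ATAC counts in both, by 0.40 in cluster 4 and 0.37 in cluster 3 in log2 units relative to the mean over the other clusters, and its part in these values was not tested.

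Near LIF, which had no promoter peak, the peak at chr22:30257349-30258260, 10589 bases before the start, had 59.6 ATAC CPM in cluster 3, 32.3 in cluster 4, 31.7 in cluster 1, 21.7 in cluster 2 and 16.6 in cluster 0. A peak at chr22:30205222-30206145, 40593 bases past the start in an intron of ENSG00000225676, had 56.5 in cluster 3, 48.1 in cluster 1 and no more than 21.4 elsewhere. The peak with the highest level near LIF, at chr22:30195977-30196955, 49783 bases past the start in an intron of the same gene, had 77.1 in cluster 1, 76.1 in clusters 2 and 3, 46.5 in cluster 0 and 36.3 in cluster 4. The first 2 were lowest in cluster 0, as LIF RNA was, but the most open of the 3 was lowest in cluster 4, so the nearby peaks did not share 1 order. The share of ATAC counts on chromosome 22, relative to the mean over the other clusters, was 0.43 in cluster 3 and -0.53 in cluster 0 as log2 ratios, and its part was not tested either.

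Near the other chemokines, the peak at chr4:74109405-74110253, 10209 bases before CXCL2, was open in every cluster (29.2 to 42.5 ATAC CPM). The peak at chr4:74116795-74117703 in an intron of MTHFD2L, 17599 bases before CXCL2, had 24.6 in cluster 0 and 8.45 to 15.3 in the others, and one over a MTHFD2L exon at chr4:74157550-74158473 had 25.2 to 41.0. All 3 were open in every cluster, and the peaks at 74109405 and 74116795 and the CXCL2 promoter peak were also the most open within 100 kb of CXCL3. The peak at chr4:73704343-73705132, 35408 bases before CXCL8, had 27.7 in cluster 0, 18.9 in cluster 4, 14.6 in cluster 3, 12.1 in cluster 1 and 12 in cluster 2. A peak at chr4:73816613-73817498, between CXCL8 and CXCL1, had 10.7 in cluster 0, 9.70 in cluster 4, 6.12 in cluster 1, 2.93 in cluster 3 and 0.214 in cluster 2, and the peak at chr4:73725730-73726821, 13719 bases before CXCL8, had 10.4 in clusters 0 and 4 and 4.28 to 7.17 in the others. Clusters 0 and 4 were thus the more open at all 3 peaks near CXCL8. The share of ATAC counts on all of chromosome 4 was also raised in these clusters, by 0.38 in cluster 0 and 0.23 in cluster 4 as log2 ratios. It was lowered in clusters 1 (-0.39), 2 (-0.17) and 3 (-0.13), and its part in these values was not tested. Past the CXCL1 gene, the peak at chr4:73916918-73917826 had 15.1 in cluster 2 and 1.95 to 10.7 in the others, and the peak at chr4:73904214-73905125 had 7.59 in cluster 2 and no more than 1.67 elsewhere. Both were highest in the cluster with the least CXCL1 RNA. The first of these and the CXCL3 promoter peak were also among the 3 most open near CXCL5. For CCL20, the peak at chr2:227818054-227818945, past the end of the gene, was open in all clusters at 60.7 to 80.7, although the gene was rarely read. The CCL20 promoter peak itself had only 0 to 2.22, so counts in that peak and RNA were both low. That peak need not lie at the printed CCL20 promoter. The peak at chr2:227862687-227863680 had 27.5 in cluster 2 and 12.7 to 22.9 in the others. The peak at chr2:227853753-227854382, 39910 bases past the CCL20 start, had 22.1 in cluster 0 and no more than 5.75 elsewhere. Near IL1B, a peak 99255 bases before the start at chr2:112936035-112936924 had 37.6 in cluster 0, 28.3 in cluster 4, 19.4 in cluster 3 and no more than 2.14 in clusters 1 and 2. A peak over a CKAP2L exon at chr2:112736725-112737629, within 100 kb of both IL1A and IL1B, had 27.6 in cluster 0, 18.7 in cluster 3, 17.7 in cluster 4 and no more than 3.46 in clusters 1 and 2, and another at chr2:112764280-112765155 had 30.2 to 52.2, highest in cluster 2. The peak at chr2:112692236-112693133, 91456 bases past the IL1A start, had 48.5 in cluster 4 and 9.73 to 35.1 in the others. Of these, the first 2 were highest in cluster 0, where both RNAs were, and the other 2 were not.

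The genes that receive and relay these signals were taken from lists of 73 pathway genes, of which 62 could be tested and 13 were high in 1 cluster, beside 18.5% of all genes. Of 52 tested in the 20% portion 8 were, beside 12.6% of all genes, so both counts were near the share over all genes. Among the receptors this held for 1 of 6, the decoy receptor of interleukin 1 IL1R2, at 7.54 CPM in cluster 1. The neutrophil receptors CXCR1 and CXCR2 had 1 UMI each in the 80% portion, and CCR6 had 21, so these nuclei made chemokines whose receptors were hardly read in them. The shared receptor chain IL6ST was present in all clusters, at 86.2 to 206 CPM, as was LIFR, at 20.4 to 98.6 CPM. Among 18 genes of the NF-kB pathway 1 was high in a cluster, the inhibitor TNFAIP3, at 42.9 CPM in cluster 4 and 2.85 to 11.1 CPM elsewhere, and at 34.0 CPM there in the 20% portion. TNFAIP3 in cluster 4 did not rest on the single nucleus, without which it was 42.5 CPM. The NF-kB subunit genes RELA (17.2 to 33.8 CPM) and NFKB1 (54.0 to 104 CPM) differed little by comparison. Other genes of this list differed more without passing the rule. BIRC3 was 20.7 to 21.4 CPM in clusters 0, 1 and 4 but 1.83 and 1.87 CPM in clusters 2 and 3. In the 20% portion it was 14.7 to 18.5 CPM against 1.26 and 1.52 CPM. ICAM1 was 4.55 CPM in cluster 1 and 54.9 CPM in cluster 2, and the subunit gene RELB was 9.21 to 25.4 CPM.

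Of 10 genes of IL6 and LIF signalling, 2 feedback inhibitors were high in cluster 4. SOCS3 was 58.2 CPM there, which became 22.8 CPM without the single nucleus, and in the 20% portion it was highest in cluster 0. CISH was 7.22 CPM in cluster 4 and 5.04 CPM without the nucleus, and in the 20% portion it was 1.55 CPM there and highest in cluster 3, at 3.04 CPM. SOCS3 in cluster 4 thus rested on that nucleus, and neither gene was highest there in the second library. Of 9 genes of interleukin 1 signalling and processing, CASP1, the protease that cleaves the IL1B precursor, was high in cluster 0 at 8.48 CPM. Of 7 regulators of mRNA decay, ZFP36 (tristetraprolin), which destabilises transcripts with AU-rich elements, was 107 CPM in cluster 1 and 15.0 to 46.9 CPM elsewhere (38.9 in cluster 4 without the nucleus). Its 109 CPM in cluster 1 of the 20% portion was again the highest but did not pass the 4-fold rule there. The cluster with the most CXCL5 and CXCL3 RNA was also the one with the most ZFP36 RNA.

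Of 12 other secreted inflammatory genes that could be tested, 7 were high in 1 cluster, beside 18.5% of all genes. TNFSF10 (TRAIL) was 93.9 CPM in cluster 0, and the gp130 cytokine IL11 was 69.0 CPM in cluster 2 and 40.2 CPM in cluster 3. CSF2 (GM-CSF) was 12.8 CPM in cluster 4, CX3CL1 was 12.1 CPM and IL24 11.7 CPM in cluster 3, and CXCL16 was 8.15 CPM in cluster 1, close to its 7.22 CPM in cluster 4, which was the highest in the 20% portion. Cluster 2, lowest for the 10 genes together, was thus the highest for IL11, a relative of IL6 and LIF, and had 62.5 CPM of it in the 20% portion.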

How the data were processed

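RNA and ATAC of 5 mixed cell lines were measured in nuclei of an 80% and a 20% portion of 1 preparation. The authors deposited 1 matrix for each portion, holding raw counts (UMIs of genes, and counts in peaks called separately in each portion) made by Cell Ranger ARC 2.0.0 on GRCh38, per the submitters' processing notes. The gene annotation, and whether ATAC counts are fragments or ends, are not given in the sources used here. All deposited barcodes were kept.

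Nuclei of the 80% portion were clustered on RNA with scanpy 1.11.5 and Seurat 5.3.0 (2000 variable genes, 30 components, 20 neighbours, resolution 0.05). Nuclei of the 20% portion were assigned by correlation with the cluster means of the 80% portion. The same step returned 97.9% of 80% nuclei to their own cluster. Those nuclei had made the means, so how well 20% nuclei were assigned was not measured. Scrublet (in scanpy) marked 385 doublets (5.87%), removed only as an alternative. UMIs or ATAC counts were summed by cluster and given for every 1000000 of the cluster (CPM), with exact Poisson intervals (scipy 1.17.1). Features with at least 50 counts were tested against a 4-fold rule, with a floor of 3 counts. The genes, pathway lists and rules were chosen with earlier results of these data known. All 10 genes were named, with pathway genes past the rule (at most 6 a list), the 3 nearby peaks of each gene with the highest level and the closest genes by Pearson r of log2(CPM + 1). Scripts were tested on simulated data. Alternatives were other folds, references, windows, clusterings, thinnings and filters. 9 of 10 genes had a RefSeq promoter.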

Additional observations from a re-analysis of the deposited data

How the results depend on the processing

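CXCL3 and CXCL5 stayed high in 1 cluster under all 13 alternatives to the count of genes. With 2-fold 6 of 10 genes passed, beside 43.8% of all genes, and in the 20% portion 4 of 7, beside 12.6%. ATAC clusters and a divided cluster 3 each added CXCL1, beside 18.5% and 19.4% of all genes. Of 62 pathway genes 3 passed against the next highest cluster, beside 6.89% of all genes, and 32 at 2-fold, beside 43.8%. At 8-fold 6 passed, beside 8.76%, and in the 20% portion 8 of 52, beside 12.6%. The other alternatives gave 11 to 15 of 61 to 73, beside 14.0% to 19.7% of all genes. Another seed gave 6 clusters and lost IL1R2, SOCS3, CXCL16 and ZFP36. Of 197 nearby peaks 11 passed against the next highest cluster, beside 7.70% of all peaks, and 132 at 2-fold, beside 64.3%. At 8-fold 13 passed, beside 9.16%, and in the 20% portion 11 of 83, beside 15.9%. Within 50 kb 35 of 128 and within 250 kb 84 of 336 passed, beside 26.5%. Otherwise 43 to 62 of 191 to 208 passed, beside 23.5% to 28.9% of all peaks. Other folds and windows change what is counted; for the other changes the cause was not tested. Thinning to 2000 UMIs left 6 of 22 pairs of genes with intervals apart, and removing doublets 8 of 39. Of 50 levels, 43 to 50 stayed inside the counting interval under each of 6 alternatives: removing doublets changed the highest cluster of CXCL1, leaving out the nucleus with the most UMIs of these genes changed that of CXCL2, CCL20 and IL6, and leaving out for each gene and cluster the nucleus with the most of it also that of CXCL8. Both of these and the division of cluster 3 were chosen after seeing the data. No paired test over libraries was possible because each portion was 1 library, and no result came from a test. RNA and ATAC of the same nuclei were compared as a description only. Depth limits CCL20, IL1A and IL1B, and the 20% portion, where cluster 4 held 55 nuclei.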
